A study of Mus musculus with 7 samples.

Results

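Germline and meiosis genes are a set of 35 genes that serve the making of germ cells, the silencing of transposons in them and meiosis. The members were chosen by gene symbol. A member was measured if a probe set of the array carried its symbol and no other. Of the 35, 34 met this rule, out of 22180 genes measured in all, each by 1 probe set. Sycp3, a synaptonemal complex gene, was not analysed here, since its probe set also carries the symbol of another gene. RNA came from mouse cells of strain 129 on 7 Affymetrix whole-transcript arrays, 1 array per sample. Wild-type (WT) cells comprised embryonic stem cells (ESC, 1 array) and induced pluripotent stem cells, or iPSC (2 arrays). Nanog knockout (KO) iPSC gave 2 arrays, and these cells are set against WT ESC and WT iPSC together as the WT pluripotent arrays. Mouse embryonic fibroblasts (MEF) gave 1 WT array and 1 Nanog KO array. The labels describe the iPSC arrays as biological replicates, without saying whether these are separate lines. Of the media named (for ESC, 2i/LIF and for MEF), the one used for each sample is not given, so medium and genotype cannot be told apart.

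Germ cells arise in the early embryo from cells of the pluripotent epiblast and switch on a programme of their own. It includes RNA-binding proteins such as Dazl and Ddx4. It also includes the piRNA pathway, in which small RNAs bound to Piwi proteins guide the silencing of transposons, and, later, the proteins that pair and recombine chromosomes in meiosis. Somatic cells keep most of these genes silent, many of them through DNA methylation of CpG-rich promoters. Mouse ESC express part of the programme at low level. In ESC a variant Polycomb complex that contains Mga, Max and E2f6 and binds E-box and E2F-type sites is known to repress many germline genes. Nanog is a homeodomain factor of the pluripotency network that is also expressed in primordial germ cells.

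Values are log2 of the deposited RMA intensity. A gene counts as above background on an array where it exceeds the level under which 95% of 1373 odorant and vomeronasal receptor genes fall, a yardstick that lay between 6.30 and 6.49 on the 7 arrays. Nanog stood at 12.73 to 12.84 on the WT pluripotent arrays and at 7.50 and 7.44 in KO iPSC, 39.4-fold lower. All 9 pluripotent cell markers were above background on each ESC and iPSC array, and 1 and 2 of them on the MEF arrays. Fibroblast markers, 14 of 15 measured, summed to 7278 on the linear scale in WT ESC, 14416 and 5840 in WT iPSC, 1985 in both KO iPSC arrays and 45590 and 66292 in MEF. Of these 14, 10 were above background on each KO iPSC array and on WT iPSC replicate 2, and on all 3 arrays the others were Postn, Lum, Dcn and Twist2. On each array 2 of 7 oocyte markers were above background, in MEF as in the pluripotent cells, and 1 or 2 of 5 spermatid markers.

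Germline and meiosis genes that differed between KO iPSC and the WT pluripotent arrays were mostly lower in the KO cells. Of the 34, 11 were lower and 1 was higher, while 22 did not pass (limma, adjusted p under 0.05, 2 KO arrays against 3 WT arrays). Over all genes 8.81% were called lower and 6.89% higher, and 7.3% lower and 8.61% higher with arrays centred on their medians, a setting that left the counts of these genes at 11 and 1. The median difference over the 34 genes was -0.52, against 0.03 over all genes. The 2 KO iPSC arrays lay below all 3 WT pluripotent arrays in 19 of the 34 genes and above them in 3, against 23.2% and 28.4% of all genes. The number above background was 24 in WT ESC, 21 on each WT iPSC array, 12 and 15 in KO iPSC and 9 and 8 in MEF. Over all genes the share above background lay between 61.0% (WT MEF) and 63.7% (WT ESC) on the 7 arrays. Since cultures were measured in bulk, fewer cells that express a gene and less RNA per cell cannot be told apart. The count rests on both KO iPSC arrays. Without replicate 1, or without replicate 2, most calls in these genes and over all genes were lost, with 1 KO array left.

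**Figure D1:**
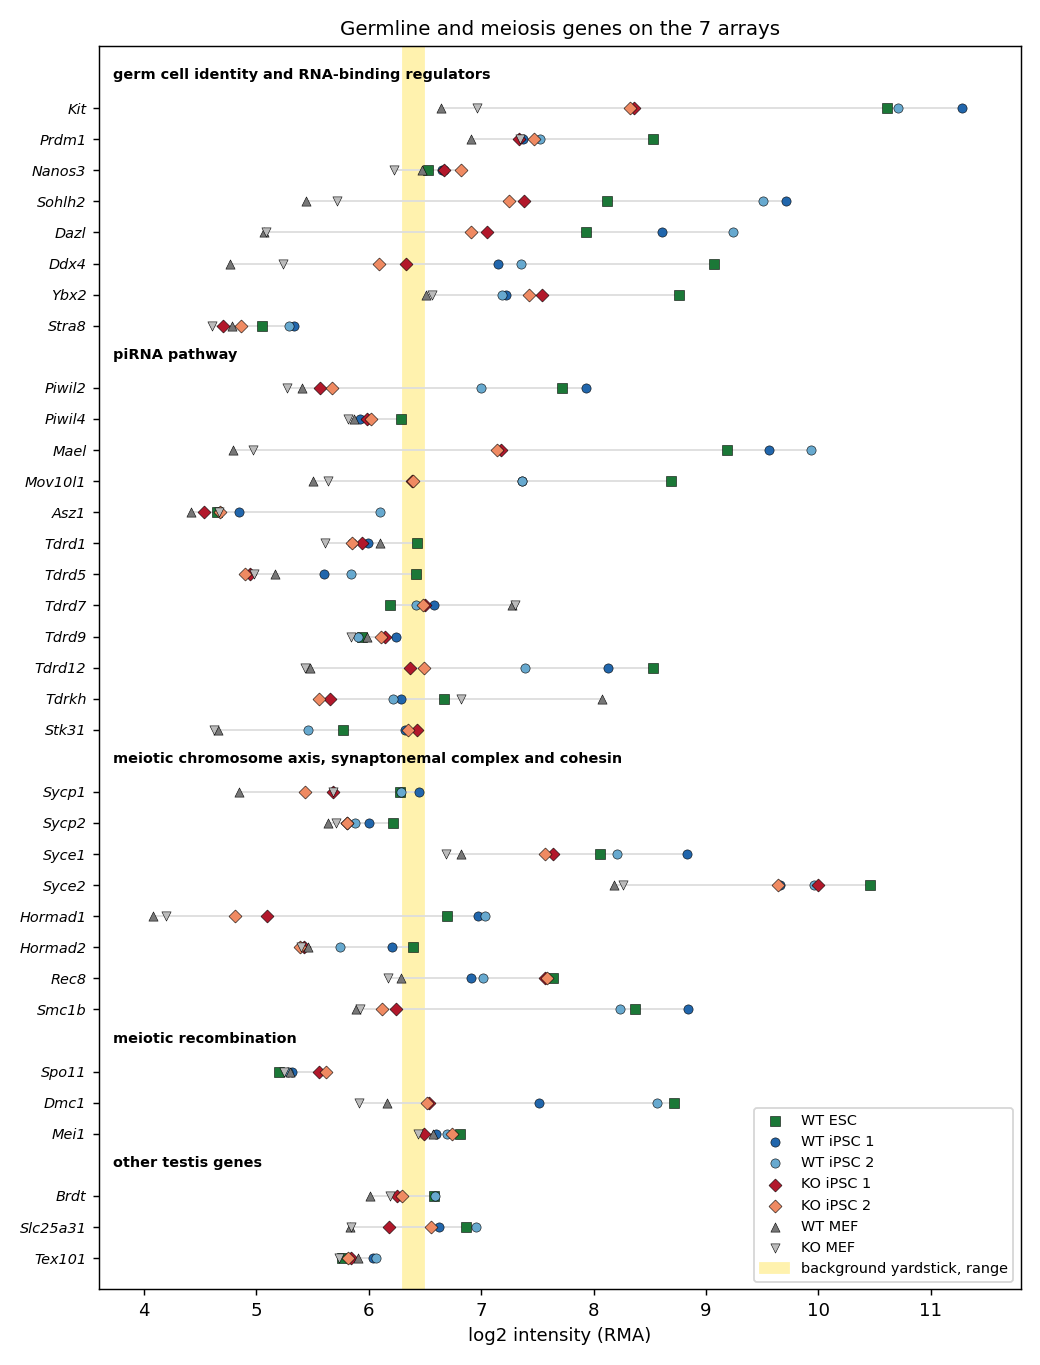
Log2 intensity of the 34 genes on the 7 arrays, one point per array, grouped by role; the shaded band is the range of the background yardstick over the arrays, 6.30 to 6.49. In Kit, Mael, Smc1b and Hormad1 the 2 KO iPSC arrays (diamonds) lie apart from and below the 3 WT pluripotent arrays, and in Smc1b and Hormad1 they lie below the band.

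Promoters of 6 genes are shown, because they had the largest differences from the WT pluripotent arrays among genes that hold a searched motif and were called lower against these arrays or against WT iPSC alone. Ddx4 was called only against WT iPSC. RefSeq promoter windows of GRCm38.p6, from 250 bases before to 50 bases after a start site, were at hand for 32 of the 34 genes. They were searched on both strands for the E-box CACGTG and for the E2F-type motif TCCCGC, which reads GCGGGA on the other strand. No match of one motif overlaps a match of the other in the windows printed. Of the 6 windows, Kit lies at chr5:75574737-75575036, plus strand, and Mael at chr1:166238695-166238994, minus strand. Smc1b lies at chr15:85131908-85132207, minus strand, and Hormad1 at chr3:95559427-95559726, plus strand. Dmc1 lies at chr15:79605060-79605359, minus strand, and Ddx4 at chr13:112652261-112652560, minus strand. They are printed 5′ to 3′ along the gene, and capitals mark the motif matches.
Kit: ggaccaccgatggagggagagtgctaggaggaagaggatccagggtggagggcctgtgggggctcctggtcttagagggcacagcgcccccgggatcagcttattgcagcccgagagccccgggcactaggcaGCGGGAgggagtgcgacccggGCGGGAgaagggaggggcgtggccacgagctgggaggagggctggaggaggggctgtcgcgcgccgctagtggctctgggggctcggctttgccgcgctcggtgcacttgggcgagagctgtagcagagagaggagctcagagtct
Mael: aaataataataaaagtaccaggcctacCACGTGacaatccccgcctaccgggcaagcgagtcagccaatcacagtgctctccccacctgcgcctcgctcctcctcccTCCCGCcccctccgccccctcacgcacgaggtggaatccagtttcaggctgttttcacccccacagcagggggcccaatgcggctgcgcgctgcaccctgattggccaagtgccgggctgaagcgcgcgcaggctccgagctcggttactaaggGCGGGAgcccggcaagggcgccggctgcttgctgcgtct
Smc1b: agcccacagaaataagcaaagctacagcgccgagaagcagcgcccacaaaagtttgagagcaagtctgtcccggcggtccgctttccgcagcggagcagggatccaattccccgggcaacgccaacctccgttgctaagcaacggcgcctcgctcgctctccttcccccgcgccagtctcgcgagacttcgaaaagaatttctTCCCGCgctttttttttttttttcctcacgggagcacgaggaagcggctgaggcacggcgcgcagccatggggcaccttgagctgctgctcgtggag
Hormad1: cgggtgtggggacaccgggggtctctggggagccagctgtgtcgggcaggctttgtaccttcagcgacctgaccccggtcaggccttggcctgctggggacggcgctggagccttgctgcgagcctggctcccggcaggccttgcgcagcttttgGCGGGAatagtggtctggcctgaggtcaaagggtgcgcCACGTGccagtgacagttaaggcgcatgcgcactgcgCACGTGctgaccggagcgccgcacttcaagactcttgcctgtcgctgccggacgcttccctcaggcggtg
Dmc1: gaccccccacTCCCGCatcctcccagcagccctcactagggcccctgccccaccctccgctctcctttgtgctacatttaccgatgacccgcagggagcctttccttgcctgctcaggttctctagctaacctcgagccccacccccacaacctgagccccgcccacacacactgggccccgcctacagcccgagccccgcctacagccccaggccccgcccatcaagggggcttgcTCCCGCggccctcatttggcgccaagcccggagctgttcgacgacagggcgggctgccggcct
Ddx4: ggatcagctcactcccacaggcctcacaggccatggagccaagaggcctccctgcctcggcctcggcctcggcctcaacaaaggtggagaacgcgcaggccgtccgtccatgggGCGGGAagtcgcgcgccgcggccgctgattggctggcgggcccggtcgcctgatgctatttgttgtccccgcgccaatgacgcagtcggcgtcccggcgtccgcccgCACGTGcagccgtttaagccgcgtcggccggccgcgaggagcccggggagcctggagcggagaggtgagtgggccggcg

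In these windows Kit and Dmc1 hold 2 E2F-type matches each and no E-box, and Smc1b holds 1 E2F-type match. Mael holds 1 E-box and 2 E2F-type matches. In Hormad1 there are 2 E-boxes, which begin 57 and 20 bases before the start site, and 1 E2F-type match. The E-box of Ddx4 begins 29 bases before the start site, beside 1 E2F-type match further upstream. Over the 32 genes, 11 hold an E-box (34.4%) and 12 an E2F-type match (37.5%), against 8.1% and 22.0% of all 27025 genes with such windows. The median ratio of observed to expected CpG was 0.713 in the 43 windows of these genes, against 0.384 in all 32851 windows. The median number of CpG per window was 20 against 7. Both motifs contain a CpG, and the part of base composition in the motif shares was not tested. An E-box occurred in 5 of the 15 genes with a window that were lower in either KO comparison and in 6 of the other 17. E2F-type matches were in 8 of the 15 and 4 of the 17. These are descriptions of letters in a window with no test, and no binding was measured.

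**Figure D2:**
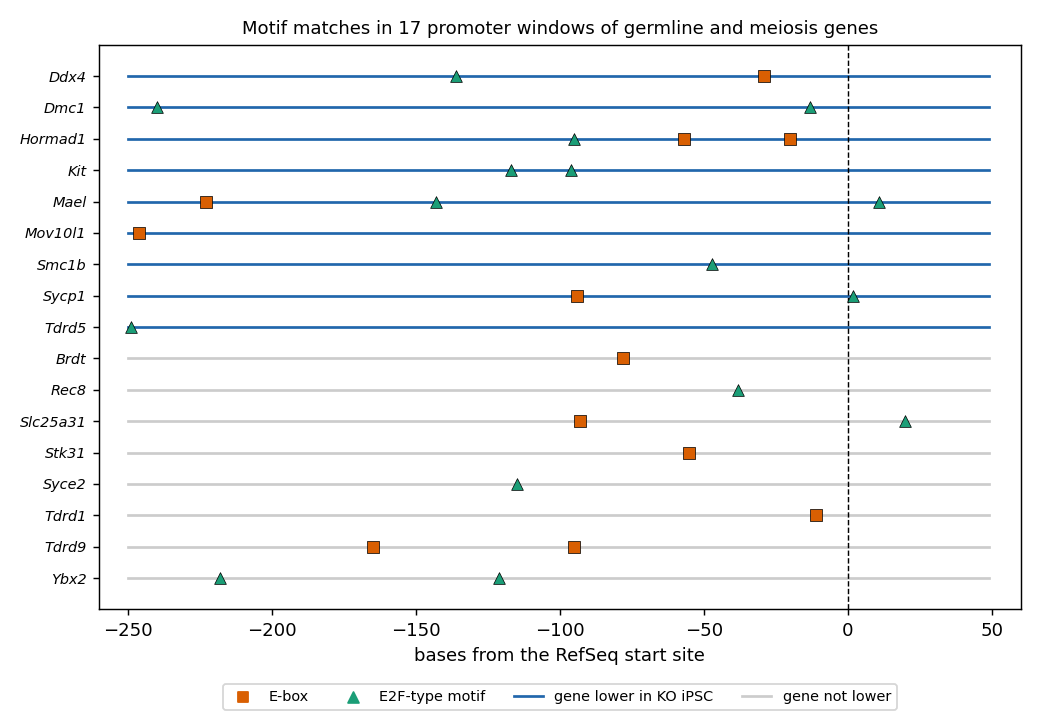
Positions of E-box (squares) and E2F-type (triangles) matches in the 17 genes with a match, 1 RefSeq window per gene; the x axis gives bases from the start site. Of these genes 9 were lower in KO iPSC (blue lines) and 8 were not (grey lines), and matches of both kinds occur in either group.

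Among the 8 regulators of germ cell identity, 2 were lower in KO iPSC than in WT pluripotent cells, 0 were higher and 6 did not pass. Over all genes 8.81% were lower and 6.89% higher in this comparison. The receptor tyrosine kinase Kit, which primordial germ cells need for survival and migration, stood at 10.61 in WT ESC and at 11.28 and 10.71 on the WT iPSC arrays. It stood at 8.36 and 8.33 in KO iPSC, still above the 6.64 and 6.96 of MEF. The groups did not overlap, and Kit fell 5.74-fold (log2 -2.52, SE 0.21, adjusted p = 0.00203). Dazl, an RNA-binding protein that licenses germ cells for gametogenesis, read 7.93 in WT ESC, 8.61 and 9.24 on the WT iPSC arrays and 7.05 and 6.91 in KO iPSC. Both MEF arrays were near 5.1 (5.07 and 5.09), below background. Dazl fell 3.07-fold (log2 -1.62, SE 0.36, adjusted p = 0.0365), and without WT iPSC replicate 1 it no longer passed.

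A further pair of genes in this role differed widely among the WT arrays. Sohlh2, a transcription factor of early spermatogonia and oocytes, stood at 8.12 in WT ESC but at 9.71 and 9.51 in WT iPSC, and at 7.38 and 7.25 in KO iPSC. The RNA helicase Ddx4, a classical germ cell marker, had the opposite order among WT arrays, with 9.07 in WT ESC, 7.15 and 7.35 on the WT iPSC arrays and 6.33 and 6.09 in KO iPSC. In both genes every KO array lay below every WT array, yet neither passed against the 3 WT arrays (Sohlh2 log2 -1.80, SE 0.47, adjusted p = 0.057; Ddx4 log2 -1.65, SE 0.58, adjusted p = 0.117). Ybx2, an RNA-binding protein that stores germ cell mRNA, read 8.77 in WT ESC, 7.22 and 7.18 on the WT iPSC arrays and 7.55 and 7.42 in KO iPSC, so that the groups overlapped. Prdm1, the repressor that starts germ cell specification, was likewise high in WT ESC alone, at 8.53 against 7.37 and 7.52 on the WT iPSC arrays and 7.34 and 7.47 in KO iPSC. Nanos3, which protects primordial germ cells, stayed within 6.22 and 6.82 on all arrays, and Stra8, which starts meiosis, was below background throughout.

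The piRNA pathway gave 5 lower genes of 12 and 0 higher, and 7 did not pass, against 8.81% lower and 6.89% higher over all genes. Mael, a piRNA factor of the germ granule, read 9.19 in WT ESC, 9.57 and 9.93 on the WT iPSC arrays and 7.18 and 7.14 in KO iPSC, while MEF gave 4.79 and 4.97. It fell 5.28-fold (log2 -2.40, SE 0.21, adjusted p = 0.00249). The KO values lay clear of the WT values and also clear of the MEF values. Piwil2, one of the Piwi proteins that carry piRNAs, stood at 7.72 in WT ESC, with 7.93 and 7.0 on the WT iPSC arrays. In KO iPSC it read 5.56 and 5.67, below background and next to the MEF values of 5.41 and 5.27. Its fold is therefore a bound, at least 2.12-fold lower (fitted log2 -1.93, SE 0.27, adjusted p = 0.00946). Such a bound sets the mean of the brighter group against the yardstick of the dimmer arrays.

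Tudor-domain proteins, which bind Piwi proteins, differed among themselves. Tdrd12 read 8.53 in WT ESC, 8.13 and 7.39 on the WT iPSC arrays and 6.36 and 6.49 in KO iPSC, where 1 of 2 arrays was above background, and it fell 3.01-fold (log2 -1.59, SE 0.32, adjusted p = 0.0266). Tdrd5 passed as lower (log2 -1.03, SE 0.24, adjusted p = 0.0396) but was above background only in WT ESC, at 6.42, so no fold is given, and it no longer passed without WT iPSC replicate 2. Tdrkh also passed (log2 -0.78, SE 0.15, adjusted p = 0.0245), with 6.67 in WT ESC, 6.29 and 6.21 on the WT iPSC arrays and 5.66 and 5.56 in KO iPSC. Among the ESC and iPSC arrays it was above background only in WT ESC, so no fold is given. Tdrkh was highest in MEF, at 8.08 and 6.82. It is the 1 gene of those lower in KO iPSC whose 2 MEF arrays exceeded every WT pluripotent array, and the summed fibroblast markers were also lower in KO iPSC. The part of fibroblast RNA in the Tdrkh difference was not tested.

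The helicase Mov10l1, which binds piRNA precursors and helps to process them, resembled Ddx4 in its order. It stood at 8.69 in WT ESC, 7.36 on both WT iPSC arrays, 6.38 and 6.39 in KO iPSC and 5.50 and 5.64 in MEF, and did not pass against the 3 WT arrays (log2 -1.42, SE 0.42, adjusted p = 0.0766). Tdrd7 ran the other way, with 7.28 and 7.30 in MEF and 6.19 to 6.58 on the pluripotent arrays. Piwil4, Tdrd9, Asz1 and Stk31 were below background on all 7 arrays, and Tdrd1 on all but WT ESC, where it read 6.43. Stk31, a Tudor-domain kinase, nevertheless had both KO iPSC arrays (6.43 and 6.35) above the WT arrays (5.46 to 6.33), a difference that did not pass (log2 0.54, SE 0.25, adjusted p = 0.203).

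Of the 8 genes of the meiotic chromosome axis, synaptonemal complex and cohesin, 3 were lower, 0 were higher and 5 did not pass. The shares over all genes were again 8.81% lower and 6.89% higher. Smc1b, the meiotic cohesin subunit, stood at 8.37 in WT ESC, 8.84 and 8.24 on the WT iPSC arrays, 6.24 and 6.12 in KO iPSC and 5.89 and 5.92 in MEF. It was at least 4.05-fold lower in KO iPSC (fitted log2 -2.30, SE 0.19, adjusted p = 0.00201). The 2 KO arrays were nearer to MEF than to any WT pluripotent array. Hormad1, which marks unpaired chromosome axes, read 6.70 in WT ESC, 6.97 and 7.03 on the WT iPSC arrays, 5.09 and 4.81 in KO iPSC and 4.08 and 4.20 in MEF. It was at least 1.35-fold lower, with a WT signal close to background (fitted log2 -1.95, SE 0.14, adjusted p = 0.00146). Sycp1, the transverse filament of the synaptonemal complex, also passed as lower (log2 -0.78, SE 0.11, adjusted p = 0.00982), but WT iPSC replicate 1, at 6.45, was the 1 array above background.

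The other 5 members of this role did not pass. Syce2, a central element protein of the synaptonemal complex, stood at 10.46 in WT ESC, 9.66 and 9.96 on the WT iPSC arrays and averaged 9.82 in KO iPSC, and the groups overlapped (log2 -0.21, SE 0.25). Syce1 read 8.06 in WT ESC, 8.84 and 8.21 on the WT iPSC arrays and 7.64 and 7.57 in KO iPSC, a difference that did not pass (log2 -0.76, SE 0.23, adjusted p = 0.0859). Rec8, the meiotic kleisin of cohesin, was at 7.64 in WT ESC and 7.57 and 7.59 in KO iPSC, above the 6.91 and 7.02 of WT iPSC. Sycp2 was below background on every array, and Hormad2 on all but WT ESC.

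In recombination, Dmc1, the meiotic strand exchange protein, fell 3.35-fold (log2 -1.74, SE 0.36, adjusted p = 0.0285). Its values were 8.72 in WT ESC, 7.52 and 8.57 on the WT iPSC arrays, 6.53 and 6.52 in KO iPSC and 6.17 and 5.92 in MEF. Without WT iPSC replicate 2 it no longer passed. Spo11, which makes meiotic double-strand breaks, passed as higher (log2 0.32, SE 0.08, adjusted p = 0.0493), yet lay between 5.20 and 5.62 on all 7 arrays, below background, so no fold is given, and it no longer passed without WT iPSC replicate 1 or without replicate 2. Mei1 stayed between 6.44 and 6.81. Of the other testis genes, the adenine nucleotide carrier Slc25a31 had KO values of 6.18 and 6.55 under WT values of 6.63 to 6.95 (log2 -0.45, SE 0.15, adjusted p = 0.109), the bromodomain gene Brdt lay between 6.01 and 6.59, and Tex101 was below background.

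**Figure D3:**
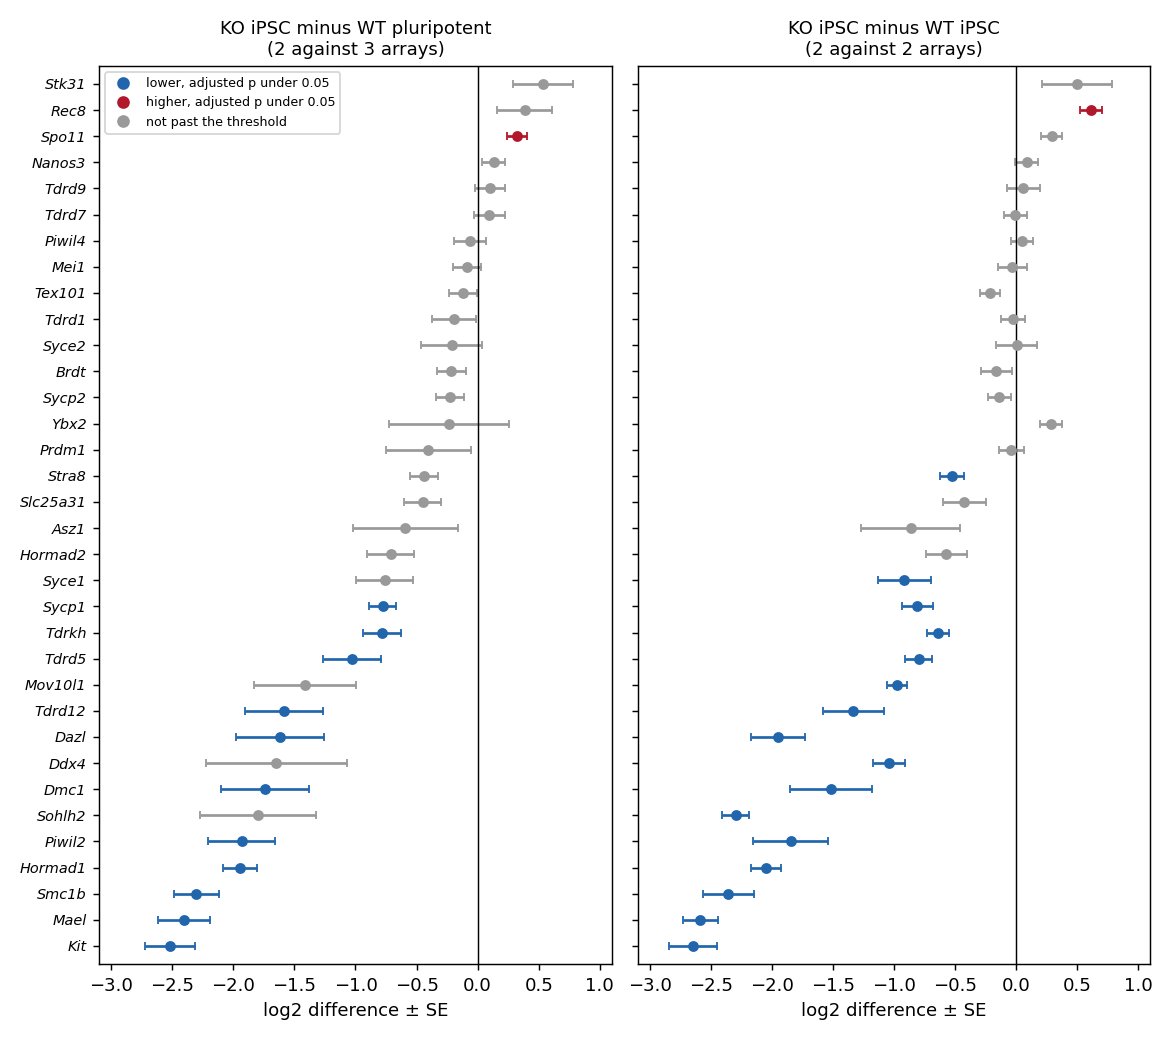
Log2 difference of each of the 34 genes between KO iPSC and the WT pluripotent arrays (left) and between KO iPSC and WT iPSC (right), with the standard error of the fit as bars; colour marks the call at an adjusted p of 0.05. Kit (-2.52) and Mael (-2.40) lie farthest to the left, and Sohlh2, Ddx4 and Mov10l1 are called in the right panel and not in the left.

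Against the 2 WT iPSC arrays alone, with the same KO arrays, 16 of the 34 genes were lower, 1 was higher and 17 did not pass, where 9.55% of all genes were called lower and 6.93% higher. The 11 genes called before were among the 16, joined by Sohlh2, Ddx4, Mov10l1, Syce1 and Stra8. Sohlh2 fell 4.91-fold (log2 -2.30, SE 0.11, adjusted p = 0.00119). Ddx4 was at least 1.72-fold lower (fitted log2 -1.04, SE 0.13, adjusted p = 0.0086) and Mov10l1 at least 1.86-fold lower (fitted log2 -0.97, SE 0.08, adjusted p = 0.00358). Stra8 passed below background (log2 -0.53, SE 0.10). Rec8 was the 1 gene that rose, 1.53-fold (log2 0.61, SE 0.09, adjusted p = 0.0132), and its KO mean differed from WT ESC by -0.07. In each of the 16 lower genes both KO arrays also lay below WT ESC. For 11 of them this follows in part from their selection, since WT ESC belongs to the WT pluripotent arrays against which they were called lower. The order was not counted over all genes, so no conclusion is drawn from it. Without KO iPSC replicate 1, or without replicate 2, most calls against WT iPSC in the 34 genes were lost in limma, as were most calls over all genes.

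Fibroblast signal differed between the genotypes, as given above, so the order of WT pluripotent and MEF arrays was counted for these genes. In 15 of the 16 lower genes all 3 WT pluripotent arrays exceeded both MEF arrays, Tdrkh being the other. The same order held in 27 of all 34 genes and in 27.9% of all genes measured. Without WT iPSC replicate 1, the pluripotent array with the highest fibroblast marker sum, 11 genes were lower than in the remaining WT arrays. Dazl was lost and Syce1 gained, and 11% of all genes were called lower and 7.8% higher. The part of fibroblast signal in these calls was not tested. Of the 16 lower genes, 9 had no KO array above background, 1 had 1 and 6 had both.

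WT ESC and WT iPSC were compared because they form the control group together. In limma 3 of the 34 genes were higher in WT ESC and 0 lower, where 0.0812% of all genes were called in each direction. An unadjusted p under 0.05 was found for 15 of the 34 and for 2704 of all 22180 genes. Ddx4 was 3.54-fold higher (log2 1.82, SE 0.16, adjusted p = 0.0478), Ybx2 2.96-fold (log2 1.56, SE 0.11, adjusted p = 0.0323) and Mov10l1 2.50-fold (log2 1.32, SE 0.10, adjusted p = 0.0366), each from 1 array against 2. Sohlh2 was lower without passing (log2 -1.49, SE 0.14, adjusted p = 0.0526). Of the 16 genes lower in KO iPSC, WT ESC lay above both WT iPSC arrays in 6 and below both in 8, so these genes had no common order among the WT cells. The KO iPSC arrays share the estimate of spread in this fit. Without KO iPSC replicate 1, or without replicate 2, the 3 calls were lost, as were nearly all calls over all genes. Without WT iPSC replicate 1, 8 were higher and 4 lower, where 2.2% and 1.83% of all genes were. Without replicate 2, 8 were higher and 5 lower, where 4.94% and 5.38% of all genes were.

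With genotype as a covariate, 14 of the 34 genes were higher in iPSC than in MEF and 2 were lower, where 16.0% of all genes were called higher and 14.7% lower. Mael was at least 4.15-fold higher (fitted log2 3.57, SE 0.61, adjusted p = 0.0101), Sohlh2 at least 4.17-fold (fitted log2 2.88, SE 0.57, adjusted p = 0.0156) and Dazl at least 2.93-fold (fitted log2 2.88, SE 0.47, adjusted p = 0.00852). Kit (7.30-fold, log2 2.87, adjusted p = 0.0268) and Syce2 (3.01-fold, log2 1.59, adjusted p = 0.0018) were also above background in MEF. The Kit call was lost on leaving out any 1 of the 4 iPSC arrays (adjusted p from 0.0571 to 0.0784). The 2 lower genes were Tdrkh (log2 -1.52, SE 0.16, adjusted p = 0.00236) and Tdrd7 (log2 -0.80, SE 0.09, adjusted p = 0.00274), both Tudor-domain genes. Without the KO MEF array, 21 genes were higher, at 17.2% of all genes, and the median over the 34 genes was 0.82. Without the WT MEF array, 13 were higher, at 18.1% of all genes, and the median was 0.34, against 0.72 with both. The differences of Kit were then 4.35 without the KO MEF array and 1.38 without the WT MEF array, those of Mael 4.96 and 2.19, those of Sohlh2 4.17 and 1.59 and those of Dazl 3.86 and 1.89 on the log2 scale. Those of Tdrkh were -1.83 and -1.21. With the KO MEF array left out, the cell type term rests on WT iPSC against WT MEF alone. With the WT MEF array left out, it rests on KO iPSC against KO MEF alone. These values are thus differences within 1 genotype, and the fit with both arrays combines them.

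In 4 genes above background on all 7 arrays, the mean of the WT pluripotent arrays exceeded the MEF mean by at least 1 on the log2 scale, so the place of KO iPSC between both could be read. The KO iPSC mean lay at 38.0% of the distance from MEF to WT in Kit, 52.8% in Syce1, 80.0% in Ybx2 and 88.3% in Syce2. In Ybx2 both KO arrays (7.55 and 7.42) lay above both WT iPSC arrays (7.22 and 7.18), so its place below WT rests on WT ESC, at 8.77. In Syce2 the KO iPSC mean of 9.82 was next to the WT iPSC mean of 9.81, with WT ESC at 10.46. These shares are descriptions with no test. In Smc1b, Piwil2 and Hormad1 the KO iPSC and the MEF arrays were all below background, so no such share is given. Over all 34 genes, both KO iPSC arrays exceeded both MEF arrays in 23, against 39.7% of all genes.

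In MEF the genotypes were 1 array each and were not tested. KO minus WT ranged from -1.26 (Tdrkh) to 0.84 (Sycp1), with a median of -0.01, and 17 of the 34 differences were below 0. Only those 2 genes differed by more than 0.5 in size, and Sycp1 was below background on both arrays. The difference between KO and WT was lower in iPSC than in MEF for 9 genes and higher for 0 (interaction in limma, with 5.48% of all genes called lower and 3.07% higher). An unadjusted p under 0.05 was found for 16 of the 34 and for 5662 of all 22180 genes. The 9 lower genes were Sohlh2, Mael, Hormad1, Kit, Mov10l1, Sycp1, Ddx4, Smc1b and Dazl. Of them only Kit was above background in MEF, at 6.64 in WT and 6.96 in KO. In the others a lower level in KO MEF could not have been seen. Without KO iPSC replicate 1, or without replicate 2, all or nearly all of the 9 calls were lost, as were most calls over all genes. Without WT iPSC replicate 1, 14 were lower and 3 higher, where 13.2% and 9.4% of all genes were. Without replicate 2, 14 were lower and 2 higher, where 12.6% and 9.18% of all genes were.

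**Figure D4:**
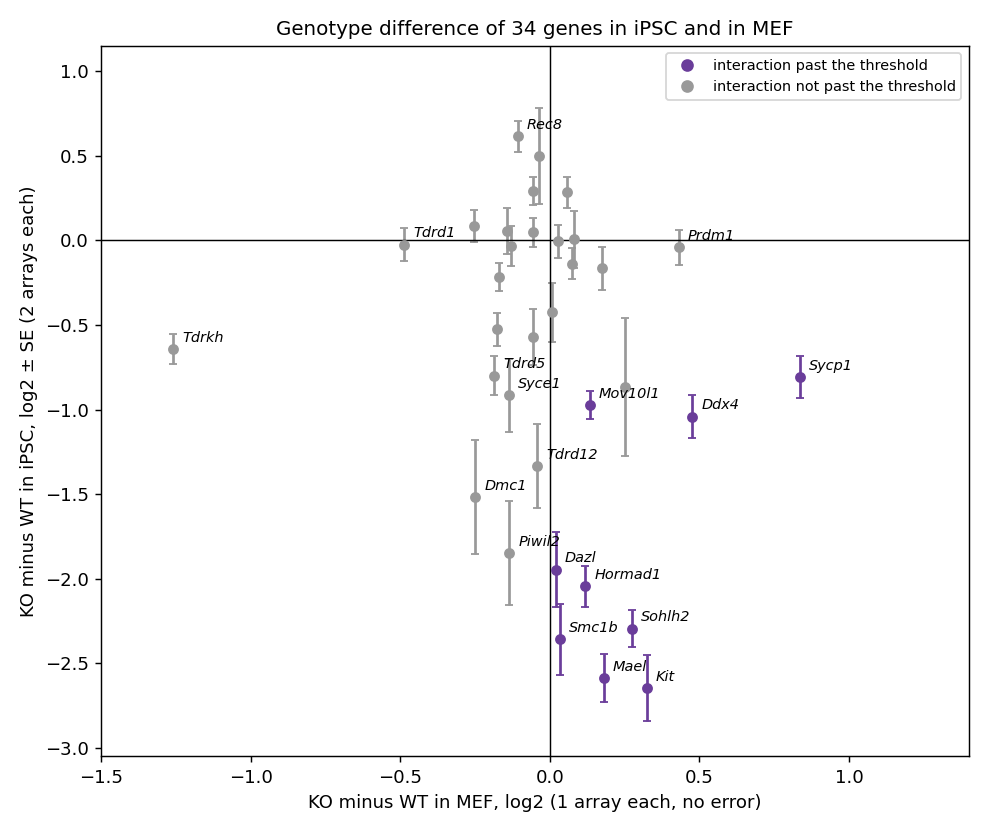
KO minus WT difference of the 34 genes in MEF (x axis, log2, 1 array each) against that in iPSC (y axis, log2 with the standard error); purple marks an interaction past an adjusted p of 0.05. Kit, Mael and Smc1b lie low on the y axis and between 0.03 and 0.32 on the x axis, while Tdrkh lies at -1.26 in MEF and -0.64 in iPSC.

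Further lists of related genes were counted in the same way against the WT pluripotent arrays, where, as above, 8.81% of all genes were lower and 6.89% higher. Of 26 other meiosis genes measured, 5 were lower, 1 was higher and 20 did not pass (median -0.14). The meiotic cohesin subunit Stag3, partner of Smc1b and Rec8, read 10.94 in WT ESC, 10.68 and 10.57 on the WT iPSC arrays and 8.72 and 8.83 in KO iPSC, and fell 3.87-fold (log2 -1.95, SE 0.13, adjusted p = 0.00119). Meioc, which sustains meiotic prophase, was at least 1.93-fold lower, and Tex11, an X-linked meiotic gene, was lower as well (fitted log2 -2.13, SE 0.10), with both KO arrays (4.82 and 4.61) below background. The histone reader Zcwpw1 (log2 -1.67, SE 0.24) and the strand exchange cofactor Mnd1 (log2 -1.35, SE 0.34) fell, and Tex15 (log2 0.83, SE 0.14) rose.

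Of 19 other genes of piRNA and transposon defence, 1 was lower, 2 were higher and 16 did not pass (median 0.06), counts near the shares of all genes. The Tudor-domain gene Rnf17 fell 4.35-fold (log2 -2.12, SE 0.17, adjusted p = 0.00201). Tex15, shared with the list before, and Nanos2 were higher, and Nanos2 was below background on every array. In the mitotic list, 3 of 9 genes of cohesin and strand exchange were lower and 0 higher. These were Rad51c (log2 -1.07), Brca2 (-0.83) and Palb2 (-0.57). The mitotic cohesin subunit Smc1a, the counterpart of Smc1b, did not pass here (log2 -0.54, SE 0.15, adjusted p = 0.0695). Against WT iPSC alone Smc1a was called lower in limma (log2 -0.67, SE 0.10, adjusted p = 0.0156). Both KO iPSC arrays of Smc1a lay below every WT pluripotent array.

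Of 16 primordial germ cell genes, 4 were lower and 2 higher. The germ cell specifier Prdm14 fell by 1.75 on the log2 scale, and Tfap2c, the AP-2 factor that acts with it, fell 2.89-fold (log2 -1.53, SE 0.11, adjusted p = 0.00146). Lin28a (-1.85) and Ifitm3 (-3.85) were lower as well. Ifitm3 was also high in MEF, at 12.29 and 12.70, against 11.94 to 12.49 on the WT pluripotent arrays. The part of fibroblast RNA in the Ifitm3 difference was not tested. Kitl, the ligand of Kit, rose 2.18-fold (log2 1.13, SE 0.28, adjusted p = 0.0469), from 5.66 in WT ESC and 6.49 and 6.53 on the WT iPSC arrays to 7.34 and 7.37 in KO iPSC. In MEF it read 6.61 in WT and 8.56 in KO, and the genotype difference was lower in iPSC than in MEF (interaction log2 -1.11, adjusted p = 0.0185). Nanos2, below background, was the other higher gene.

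The repressors of germline genes gave 4 lower, 0 higher and 18 not passing of 22 (median -0.14). Tfdp1, the partner of E2F factors, fell 2.03-fold (log2 -1.02, SE 0.11, adjusted p = 0.00448). The heterochromatin protein Cbx3 (-0.45), the Polycomb subunit Pcgf6 (-0.40) and the histone methyltransferase Ehmt2 (-0.39) were lower by less. Mga (log2 0.09, adjusted p = 0.562), Max (0.13) and E2f6 (-0.14), which bind the motifs searched above, did not pass. Dnmt3a (log2 -1.0, adjusted p = 0.0914) and Dnmt3b (-0.65, adjusted p = 0.171), the de novo DNA methyltransferases, did not pass either.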

How the data were processed

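RNA of 7 samples was measured on 1 Affymetrix array each. Per the submitters' processing notes, the deposited intensity values came from RMA as run in Expression Console, version 1.3.0.187; the values show a linear scale, from 9.67 to 13043. The log2 was taken with no further normalization. Of 33649 probe sets, 23521 carry 1 symbol in the platform annotation, 1814 several and 8314 are not listed there and are unnamed here. The highest-mean probe set stood for a gene. Where all arrays of the dimmer side were below the receptor yardstick, folds are lower bounds against it.

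Differences across all 22180 genes were tested with limma 3.58.1 in R 4.3.3 (lmFit, eBayes, two-sided, Benjamini-Hochberg over all genes, threshold 0.05). KO iPSC against WT pluripotent cells used 5 arrays (3 residual degrees of freedom). KO against WT iPSC, ESC against iPSC and the interaction came from a 7-array fit of 5 group means, leaving 2 residual degrees of freedom, in which groups of 1 array are assumed to vary like the iPSC pairs. iPSC against MEF used 6 arrays with genotype as a covariate. The comparisons share arrays. P-values measure the spread between samples, which may lie within 1 line. With few arrays per group, the estimates are imprecise. The 2 KO iPSC arrays were more alike than the 2 WT iPSC arrays. Across genes, the standard deviation of the difference within the pair was 0.154 in KO and 0.324 in WT. Over 2-fold apart were 4 genes in the KO pair and 350 in the WT pair. Both pairs enter the estimate of spread. Whether the 2 KO arrays stand for independent samples was not tested. The script was tested on simulated data. Named genes are all 34 measured members, Nanog and, from each other list, at most the 5 with the largest difference past the threshold in either KO comparison; Mga, Max, E2f6, Dnmt3a and Dnmt3b fall outside this rule and were chosen after their values were seen. The design had assumed log2 values. The members and lists were chosen with earlier results of these data known. Alternatives were scaling, filters, variance moderation, probe set averaging, left-out arrays and a replicate block.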

Additional observations from a re-analysis of the deposited data

Results flagged for a closer look

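The genotype difference was unlike in iPSC and in MEF, by the interaction term, for 9 genes. On the log2 scale, KO minus WT in iPSC lay below KO minus WT in MEF by the following interaction values: -2.57 for Sohlh2, -2.77 for Mael, -2.16 for Hormad1, -2.97 for Kit and -1.11 for Mov10l1. The value was -1.65 for Sycp1, -1.52 for Ddx4, -2.39 for Smc1b and -1.97 for Dazl (adjusted p from 0.00647 for Sohlh2 to 0.0448 for Dazl, limma, 1 array per MEF genotype). In iPSC the KO minus WT differences of these genes ran from -2.65 (Kit) to -0.81 (Sycp1). In MEF they were 0.27 for Sohlh2, 0.18 for Mael, 0.12 for Hormad1, 0.32 for Kit, 0.13 for Mov10l1, 0.48 for Ddx4, 0.03 for Smc1b and 0.02 for Dazl. Sycp1 had the largest of them in MEF, 0.84, between levels of 4.85 and 5.68. All 9 but Kit were below background on both MEF arrays, where a lower level in KO could not have been seen.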

How the results depend on the processing

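The calls for Hormad1, Kit and Smc1b in KO iPSC against WT pluripotent cells held in all settings that tested them (10, 12 and 12), with adjusted p up to 0.0347, 0.0468 and 0.0458. Those for Kit, Mael, Sohlh2, Smc1b and Hormad1 held in all settings against WT iPSC. Spo11 kept its call in 3 of 10. Some of these settings could change the calls little. Each of the genes has 1 probe set, so probe set averaging left its values as they were. Against WT iPSC, the fit of the 4 iPSC arrays alone gave the same counts over all genes as the main fit. Leaving WT ESC out of the WT pluripotent arrays turns that comparison into the one against WT iPSC. It gave the same counts, with 16 genes lower and 1 higher, and is no separate setting. Against WT pluripotent cells, most calls were lost with both KO arrays counted as 1, in these genes and over all genes. Higher genes were 0 with quantile normalization and with the lower tertile of genes removed, where 8.55% and 9.66% of all genes tested were called higher. With genes under the median level removed 7 were lower and 0 higher of the 14 still tested, where 17.9% and 12.1% of all genes tested were. Leaving out 1 array gave 3 to 16 lower and 0 to 1 higher. Against WT iPSC, 2 genes were higher with quantile normalization, where 8.4% of all genes were. With genes under the median level removed 4 were lower and 0 higher of 7 tested, where 18.3% and 12.4% of all genes tested were. Leaving out 1 array gave 5 to 19 lower and 0 to 2 higher. In WT ESC against WT iPSC, 1 gene (Sohlh2) was lower after median centring and with trend and robust fitting. Under that filter 0 were higher of 7 tested, and 0 of all genes tested. An unadjusted p under 0.05 in limma was found for 5 of the 7 and for 1721 of 11090 genes. The median over those 7 was -0.39, against 0.11 over all 34. Leaving out 1 array gave 0 to 5 lower and 0 to 8 higher. For iPSC against MEF, 5 were higher and 0 lower under that filter (6 tested), where 28.2% and 25.5% of all genes tested were. Leaving out 1 array moved the number higher in either direction. The interaction gave 3 lower under that filter (7 tested), where 8.53% of all genes tested were lower. With 1 array left out, the number lower moved in either direction. Members removed by a filter were not tested in it, so fewer calls follow from its construction. With 1 array left out, the number of all genes called moved as well. The ranges above can therefore not be read as particular to the 34 genes. Leaving out a MEF array also changes the genotype that iPSC against MEF describes. For changes other than those of the filters the cause was not tested. Same-numbered iPSC arrays share only a number (correlation of deviations 0.0166). With the replicate block, 16 genes were lower and 1 higher in KO against WT iPSC, as without it, where 8.78% and 6% of all genes were. Signal over background limits 9 of the 16 lower genes, whose KO arrays give only a bound or no fold.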
